A study of Mus musculus with 8 samples.

Results

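The genes described here are 10 members of the Rgs family, the regulators of G protein signalling: Rgs1, Rgs2, Rgs4, Rgs5, Rgs6, Rgs7, Rgs8, Rgs9, Rgs16 and Rgs18. They were taken by gene symbol from the 6855 genes tested, and each of the 10 had 1 probe set. They were chosen by their measured levels and their Dom/Dom minus wild-type differences on these 8 arrays, so the members' differences between the genotypes are given as a description, with no p-value. Expression was measured on 8 Affymetrix mouse Gene 1.0 ST arrays, 4 for mutants with 2 copies of Dom, an allele of Sox10 (Dom/Dom), and 4 for wild-type embryos, numbered as replicates 1 to 4 in each genotype. Sox10 encodes a transcription factor of the neural crest, and Dom is a frameshift in it. All 8 samples were sacral neural crest cells at embryonic day 9.5 that had left an explant of neural tube taken caudal to somite 24, after 24 hours in medium with 10% serum. Strain, litter and the number of embryos behind an array are not given in the sources used here, so the spread between replicates may be partly technical.

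RGS proteins end the signal of receptors coupled to heterotrimeric G proteins: their RGS domain speeds the hydrolysis of GTP by the G alpha subunit, which then binds G beta and gamma again. Small members made of little more than this domain form the R4 subfamily, here Rgs1, Rgs2, Rgs4, Rgs5, Rgs8, Rgs16 and Rgs18. Larger members that bind the atypical beta subunit encoded by Gnb5 form the R7 subfamily, here Rgs6, Rgs7 and Rgs9. Neural crest cells read endothelin through a receptor of this class, encoded by Ednrb, and Rgs5 is best known as a marker of pericytes, the contractile cells that cover capillaries.

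The medians of the 8 arrays lay between 8.60 and 8.78 log2 units. Sox10 itself averaged 10.50 ± 0.40 log2 units on the Dom/Dom arrays and 11.69 ± 0.18 on the wild-type arrays (SD, n = 4 each), a difference of -1.20 (limma adjusted p = 0.0168). A frameshift need not remove the transcript, and the level is therefore no check of the labels. Of the 10 measured markers of neural crest and glia, 4 fell in Dom/Dom (0.408% of all genes), Cdh19 (-4.25), Erbb3 (-1.57), Cnp (-1.20) and Sox10, and 0 rose. With the replicate number as a block 5 fell (1.05% of all genes), Tfap2a being added. The list's mean level ran from 10.88 to 11.13 in Dom/Dom and from 11.84 to 12.31 in wild type. Arrays of the same replicate number resembled each other across the genotypes, and those of replicates 3 and 4 stood apart from those of replicates 1 and 2, so each member is given by array and by replicate number. The deposited values carry no detection call, and levels of different probe sets are not comparable with each other.

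Rgs5 had the largest difference of the 10 members. The gene encodes a small R4 protein that acts on Gi and Gq alpha subunits (probe set 10351455; GRCm38.p6, chr1:169655501-169695813). Its log2 level was 10.49, 10.60, 11.62 and 11.71 in Dom/Dom replicates 1 to 4, against 9.81, 9.61, 10.63 and 10.79 in wild-type replicates 1 to 4. Each Dom/Dom array was above the wild-type array of its number, yet the groups overlapped, because the wild-type arrays of replicates 3 and 4 were above the Dom/Dom arrays of replicates 1 and 2. The differences within replicates 1 to 4 were 0.68, 0.99, 0.99 and 0.92, with a mean of 0.90 log2 units, or 1.86-fold. The standard error of that mean was 0.34 when the replicate number was left out of the fit and 0.07 with the replicate number as a block. In bulk RNA, a larger share of cells with Rgs5 and more Rgs5 RNA per cell cannot be told apart.

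Rgs16 differed the other way. It encodes another R4 protein, known from lymphocytes and liver as a gene that is induced quickly by stimulation (probe set 10350733; chr1:153740353-153745468). Its log2 level was 11.30, 11.62, 11.25 and 11.35 in Dom/Dom replicates 1 to 4, against 11.87, 11.97, 11.87 and 11.82 in wild-type replicates 1 to 4. All 4 Dom/Dom arrays were below all 4 wild-type arrays, and the wild-type values were close together (SD 0.06, against 0.16 in Dom/Dom). The mean difference was -0.50, with a standard error of 0.09 without the block and 0.06 with it, and the differences within replicates 1 to 4 were -0.58, -0.35, -0.62 and -0.46. Rgs16 was the only member whose genotypes did not overlap, a state held by 2.60% of the genes tested in this direction and by 1.18% in the other.

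Rgs4 lies beside Rgs5 on chromosome 1 (chr1:169741477-169747642), 45.7 kb away, and encodes an R4 protein prominent in neurons and heart. Its log2 level was 9.26, 9.34, 10.17 and 10.39 in Dom/Dom replicates 1 to 4, against 9.40, 9.27, 9.97 and 10.06 in wild-type replicates 1 to 4. The arrays fell apart by replicate number and hardly by genotype: replicates 3 and 4 were high and replicates 1 and 2 low in each genotype. The mean difference between the genotypes was 0.11 with a standard error of 0.27, or 0.08 with the replicate block, which is within the spread between replicates.

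**Figure D1:**
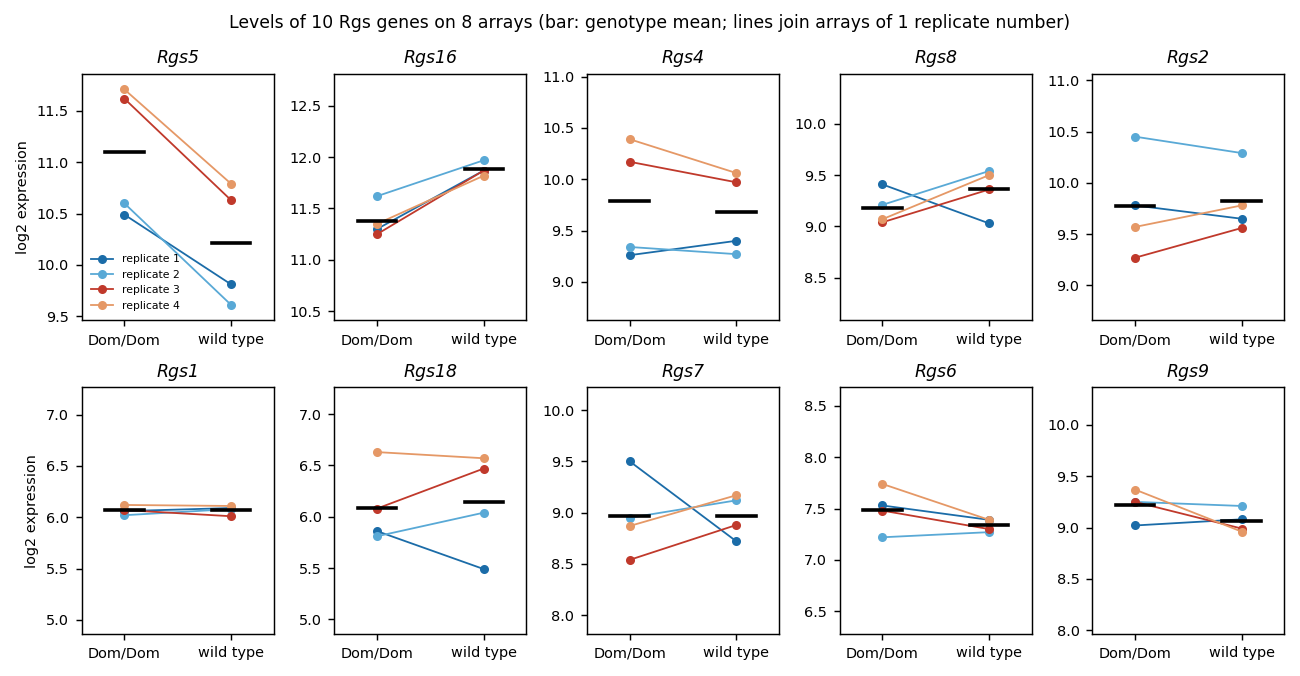
Log2 expression of the 10 Rgs genes (vertical axes, all of the same span), Dom/Dom arrays on the left and wild-type arrays on the right of each panel; lines join arrays of the same replicate number and black bars are genotype means (n = 4). For Rgs5 all 4 lines descend from Dom/Dom to wild type, for Rgs16 all 4 ascend, and Rgs1 stays between 6.01 and 6.12.

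The sequences upstream of these 3 genes are shown because Rgs5 and Rgs16 were the members with differences of opposite sign in every replicate and because Rgs4 is the neighbour of Rgs5. Each is the 250 bases before the start of transcription in RefSeq (GRCm38.p6), 5′ to 3′ on the gene's own strand, at chr1:169655251-169655500 on the plus strand for Rgs5, chr1:153740103-153740352 on the plus strand for Rgs16 and chr1:169747643-169747892 on the minus strand for Rgs4. Capitals mark CCAAT or its complement ATTGG, the letters of the CCAAT box, and TATAAA or TATATA, letters of a TATA element.
Rgs5: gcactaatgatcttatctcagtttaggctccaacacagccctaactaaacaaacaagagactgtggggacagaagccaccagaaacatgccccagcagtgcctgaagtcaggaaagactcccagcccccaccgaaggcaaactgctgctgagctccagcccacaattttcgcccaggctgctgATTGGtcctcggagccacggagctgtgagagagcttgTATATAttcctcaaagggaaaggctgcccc
Rgs16: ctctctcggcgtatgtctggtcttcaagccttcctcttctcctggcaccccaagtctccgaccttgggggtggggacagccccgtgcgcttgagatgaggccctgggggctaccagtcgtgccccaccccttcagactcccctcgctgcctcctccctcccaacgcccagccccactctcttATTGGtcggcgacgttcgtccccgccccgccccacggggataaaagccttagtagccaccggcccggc
Rgs4: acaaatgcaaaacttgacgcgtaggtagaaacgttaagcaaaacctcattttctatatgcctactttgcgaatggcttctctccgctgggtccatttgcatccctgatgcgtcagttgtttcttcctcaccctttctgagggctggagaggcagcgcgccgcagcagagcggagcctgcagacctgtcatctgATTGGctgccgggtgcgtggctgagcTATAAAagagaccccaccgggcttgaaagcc
Each of the 3 holds ATTGG at a similar place, with its first base 67 bases upstream of the start in Rgs5, 68 in Rgs16 and 57 in Rgs4. Rgs5 has TATATA 30 bases upstream and Rgs4 has TATAAA 31 bases upstream. CCAAT on either strand was in 33.8% of all 32851 RefSeq windows of this length, TATAAA in 12.4% and TATATA in 5.25%, windows being counted on both strands and a letter being allowed in more than 1 motif.

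For 8 of the members the table held at least 1 window, 10 windows in all (3 of Rgs8), and those of Rgs1 and Rgs18 were not among them. CCAAT was in 7 of the 10, those of Rgs2, Rgs4, Rgs5, Rgs9 and Rgs16 and 2 of Rgs8. The letters ACAAAG and ACAATG, among the cores to which SOX proteins can bind, were in 0 of the 10 windows, against 16.5% and 10.7% of all windows. Other forms of such cores were not searched. The CArG box of smooth muscle genes was also in 0 of the 10, against 1.47% of all windows. CANNTG was in 4 of the 10, against 66.2% of all windows. These are matches of letters in a short window and say nothing of binding.

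The other R4 members showed no difference between the genotypes beyond the spread of the replicates. Rgs8, expressed in Purkinje cells of the cerebellum, lies 42.7 kb before Rgs16 and had 9.41, 9.21, 9.04 and 9.07 log2 units in Dom/Dom replicates 1 to 4, against 9.03, 9.54, 9.36 and 9.5 in wild-type replicates 1 to 4. Dom/Dom was the higher genotype in replicate 1 (0.38) and the lower in replicates 2 to 4 (-0.32, -0.32 and -0.44), and the mean difference was -0.17 with a standard error of 0.13. Replicate 1 thus stood against the other 3, and the genotypes overlapped. Rgs2, which prefers Gq and restrains vasoconstrictor signals in vascular smooth muscle, had 9.78, 10.45, 9.27 and 9.57 in Dom/Dom replicates 1 to 4, against 9.65, 10.29, 9.56 and 9.78 in wild-type replicates 1 to 4. Its highest value in each genotype was in replicate 2, and its mean difference was -0.051 with a standard error of 0.24.

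Rgs1 and Rgs18 are R4 genes of blood cells, Rgs1 of lymphocytes and Rgs18 of megakaryocytes and platelets, and lie with Rgs2 in a run of Rgs genes on chromosome 1. Rgs1 had 6.06, 6.02, 6.07 and 6.12 log2 units in Dom/Dom replicates 1 to 4, against 6.09, 6.08, 6.01 and 6.11 in wild-type replicates 1 to 4. It had the narrowest range of the 10 members over all arrays, 0.11 log2 units. Rgs18 had 5.86, 5.81, 6.08 and 6.63 in Dom/Dom replicates 1 to 4, against 5.49, 6.04, 6.47 and 6.57 in wild-type replicates 1 to 4. The genotypes overlapped throughout, with a mean difference of -0.049 and a standard error of 0.24 for Rgs18. Blood and platelet markers were listed with 19 genes, of which 6 were measured and 0 passed, where 0.481% of all genes did. Their mean level ran from 8.10 to 8.53 in Dom/Dom and from 8.28 to 8.66 in wild type. The embryonic globin gene Hba-x differed by -0.70 and Selp, which encodes P-selectin, by -0.072 (limma adjusted p = 1.00 each).

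Among the R7 members, Rgs7 varied most. The gene is expressed mainly in the brain, and its log2 level was 9.5, 8.95, 8.54 and 8.87 in Dom/Dom replicates 1 to 4, against 8.72, 9.12, 8.88 and 9.17 in wild-type replicates 1 to 4. Dom/Dom replicate 1 was the highest of the 8 arrays and Dom/Dom replicate 3 the lowest. The differences within replicates were 0.78, -0.17, -0.34 and -0.30, which gave a mean of -0.0062 with a standard error of 0.18. Rgs7 and Rgs8 thus shared the pattern of a positive difference in replicate 1 and negative differences in replicates 2 to 4. Of the 9 measured markers of neurons, 5 also had it (Isl1, Nefl, Nefm, Cntn2 and Chga), while Pou4f1, Prph, Nefh and Syt1 did not. The pattern was not particular to neuron markers: Ebf1, Ackr3 and Fabp7, from other lists, had it too. It was picked after the values were seen, and its share over all genes was not counted. The mean level of the 9 differed by 0.19 in replicate 1 and by -0.39, -0.48 and -0.48 in replicates 2 to 4. Without the block 0 of the 9 passed, where 0.481% of all genes did, and with it 1 did, where 1.50% did. That gene was Pou4f1 (-0.64, limma adjusted p = 0.201, and 0.00744 with the block). It was lower in all 4 replicates, as were 10.7% of all genes. The part of these cells in the levels of Rgs7 and Rgs8 was not tested.

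Rgs6, which ends parasympathetic signals in the heart, had 7.53, 7.22, 7.48 and 7.74 log2 units in Dom/Dom replicates 1 to 4, against 7.39, 7.27, 7.30 and 7.39 in wild-type replicates 1 to 4. Rgs9, the regulator of transducin in photoreceptors, had 9.02, 9.25, 9.25 and 9.37 in Dom/Dom replicates 1 to 4, against 9.08, 9.21, 8.99 and 8.96 in wild-type replicates 1 to 4. Their mean differences were alike in size, 0.15 with a standard error of 0.11 for Rgs6 and 0.16 with a standard error of 0.10 for Rgs9, and each was positive in 3 of 4 replicates. In each of these genes the genotypes overlapped.

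**Figure D2:**
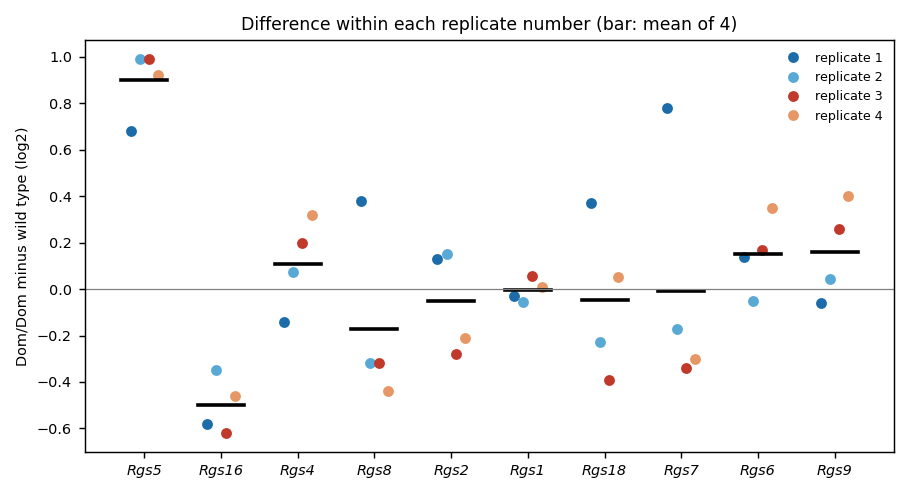
Difference in log2 expression between Dom/Dom and wild type (vertical axis) within each replicate number (points) for the 10 members, with the mean of the 4 as a bar. The points of Rgs5 lie between 0.68 and 0.99 and those of Rgs16 between -0.62 and -0.35, while the points of Rgs7 run from -0.34 to 0.78.

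Over the 10 members, 4 differences were above 0 and 6 below, with a median of -0.005, beside a median of -0.001 over all genes tested. Of the members, 8 differed by less than 0.2 log2 units. Without the block, 0 of 10 passed an adjusted p of 0.05 in the limma fit of all genes, where 0.481% of the genes did (0.0729% higher and 0.408% lower in Dom/Dom). With the replicate number as a block, 2 of 10 passed, Rgs5 and Rgs16, where 1.50% of the genes did (0.452% higher and 1.05% lower in Dom/Dom). The members were chosen with this contrast known, and nothing is read from these counts. Differences of 1 sign in all 4 replicates were found for Rgs5 among the genes with positive differences (10.4% of all genes) and for Rgs16 among those with negative ones (10.7%). Genes that were higher in Dom/Dom by at least 0.5 in every replicate numbered 6 of the 6855, and 32 were lower by at least 0.5 in every replicate. The 6 were Rgs5, Inhba, Ccdc80, Thbs4, Myl1 and Mir300, a limit and names chosen after the values were seen. In every replicate, 53 genes were at or below -0.35, the difference of Rgs16 nearest to 0, Rgs16 among them.

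The sets of replicates separated Rgs5 about as far as the genotypes did. The mean of replicates 3 and 4 was above that of replicates 1 and 2 by 1.12 in Dom/Dom and by 1.00 in wild type for Rgs5, and by 0.98 and 0.68 for Rgs4. For Rgs18 the same differences were 0.51 in Dom/Dom and 0.76 in wild type. Rgs2 ran the other way, with -0.69 in Dom/Dom and -0.30 in wild type, and Rgs16 hardly moved, with -0.16 in Dom/Dom and -0.078 in wild type. In both genotypes at once, 5 genes of the 6855, or 0.0729%, were higher by at least 1 log2 unit in replicates 3 and 4. Rgs5 was among them. The wild-type difference of Rgs5, 1.00, lay at this limit, which was set with earlier results of these data known. The median over all genes was -0.05 in Dom/Dom and -0.026 in wild type. No label says what sets these replicates apart.

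**Figure D3:**
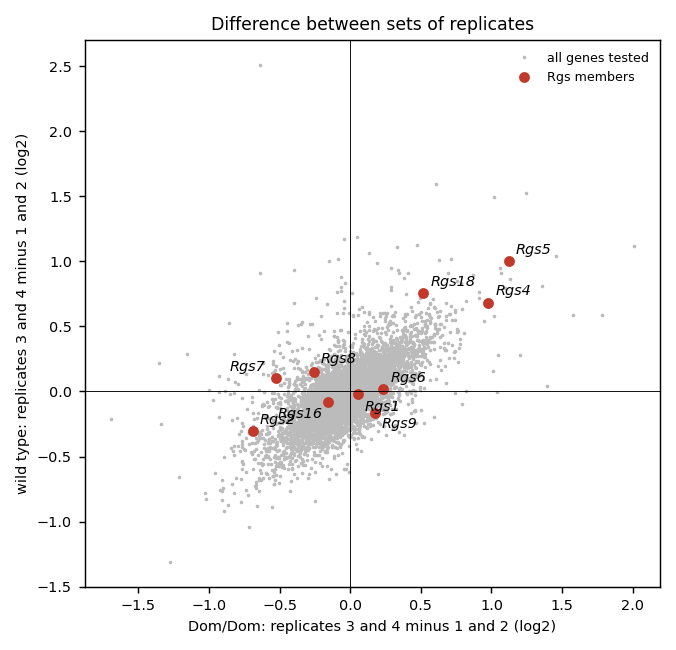
Mean of replicates 3 and 4 minus mean of replicates 1 and 2 on the log2 scale, in Dom/Dom (horizontal axis) and in wild type (vertical axis), for all 6855 genes (grey) and the 10 members (red). Rgs5, at 1.12 and 1.00, and Rgs4, at 0.98 and 0.68, lie at the upper right, and Rgs2, at -0.69 and -0.30, at the lower left.

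Rgs5 and Rgs4 had the highest correlation of the 45 pairs of members, with Pearson's r = 0.84 over the levels on the 8 arrays and r = 0.99 after each genotype's mean was subtracted. Over all genes, 267 (3.90%) had r of at least 0.9 with Rgs5 after that subtraction, so Rgs4 shared this pattern with many genes. Next after the subtraction came Rgs2 and Rgs16 with r = 0.88, though r = 0.41 over levels. Rgs7 and Rgs8 had r = 0.77 over levels and r = 0.85 after the subtraction. Over levels, which carry the genotype differences the members were chosen for, Rgs5 and Rgs16 had the lowest value of the pairs, r = -0.75. After the subtraction that pair had r = -0.53, and the lowest was Rgs6 and Rgs16 with r = -0.70. These values describe 8 arrays that share a genotype or a replicate number, and they are given without p-values.

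The genes with levels most like those of Rgs5 over the 8 arrays were Slc38a4 (r = 0.986), an amino acid transporter, Abi3bp (r = 0.971), a protein of the extracellular matrix, Tns1 (r = 0.968), the focal adhesion protein tensin 1, Sdc2 (r = 0.960), the heparan sulfate proteoglycan syndecan 2, and Rab7b (r = 0.960), a small GTPase of endosomes. Their differences between the genotypes were smaller than that of Rgs5, from 0.13 for Rab7b to 0.46 for Sdc2, and 0 of the 5 passed (limma adjusted p between 0.403 and 1.00 without the block and between 0.0521 and 0.327 with it). Each was higher in Dom/Dom in 4 of 4 replicates, as were 10.4% of all genes. The 5 were picked by levels that carry the genotype difference of Rgs5, so this shared direction follows largely from the choice. The genes with the lowest correlation were Rnf17 (r = -0.968), Slc48a1 (r = -0.963), a heme transporter, and Exoc7 (r = -0.961), a subunit of the exocyst. After subtraction of the genotype means, the closest genes were Twf1, Samm50, Kat7, Fyttd1 and Rpl38, with r from 0.994 to 0.997, and their genotype differences lay between -0.11 and 0.052.

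**Figure D4:**
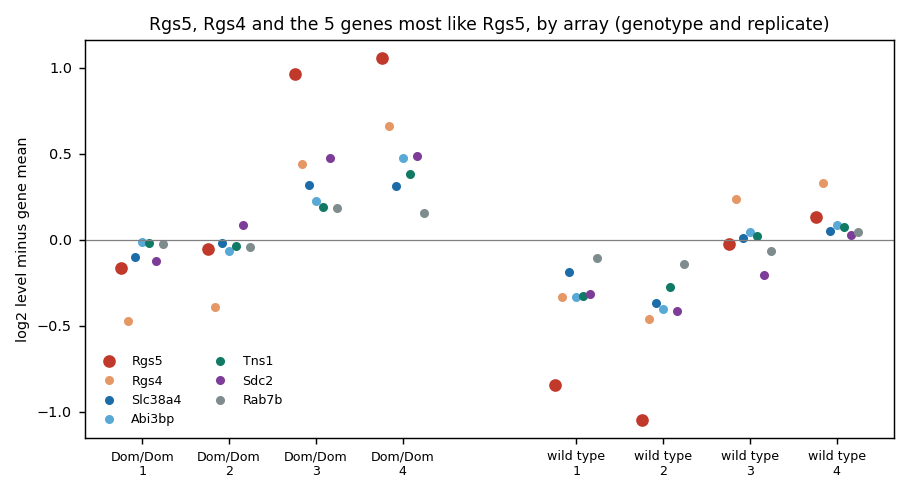
Log2 level minus the gene's mean over the 8 arrays (vertical axis) for Rgs5, Rgs4 and the 5 genes most correlated with Rgs5, by array (Dom/Dom replicates 1 to 4, then wild-type replicates 1 to 4). Rgs5 spans 2.11 log2 units, with its highest arrays Dom/Dom replicates 3 and 4 and its lowest wild-type replicates 1 and 2.

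The nearest tested genes on the chromosome differed less between the genotypes than Rgs5 and Rgs16. Before Rgs5 came Nuf2, which encodes a kinetochore protein, with a difference of 0.16 (limma adjusted p = 1.00), and after Rgs4 came Ccdc190, with -0.089 (adjusted p = 1.00). Rgs16 lay between Rgs8 and Rgsl1, which differed by -0.038 (adjusted p = 1.00). In the run that holds Rgs2, Rgs1 and Rgs18, the R4 genes Rgs13 and Rgs21 differed by 0.21 and 0.012 (adjusted p = 1.00 each). The difference of Rgs13 rested on replicate 1, where Dom/Dom had 6.74 and wild type 5.72 log2 units.

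The markers of the cells in which Rgs5 is best known differed from one list to the next. Of 17 listed pericyte and mural markers 4 were measured, Higd1b, Ndufa4l2, Vtn and Ebf1, while Pdgfrb, Cspg4, Kcnj8 and Abcc9 were not analysed here. Of the 4 measured, 0 passed without the block, where 0.481% of all genes did, or with it, where 1.50% did. Their mean level ran from 8.40 to 8.72 in Dom/Dom and from 8.50 to 8.72 in wild type, and it was lower in Dom/Dom in 3 of 4 replicates. Most of this came from Ebf1, which differed by -0.38. Higd1b, Ndufa4l2 and Vtn differed by 0.0023, -0.054 and -0.049. Of 12 smooth muscle markers 5 were measured, Myocd, Des, Smtn, Lmod1 and Mylk, and 0 passed without the block or with it, beside the same shares of all genes. All 5 differences were above 0, but those of Smtn, Lmod1 and Mylk were 0.10, 0.093 and 0.063, each negative in 1 replicate. The mean level of the 5 ran from 9.72 to 9.84 in Dom/Dom and from 9.40 to 9.71 in wild type. It differed by 0.014 in replicate 1 and by 0.44, 0.27 and 0.26 in replicates 2 to 4. The part of such cells in the level of Rgs5 was not tested. Myocd, a coactivator of smooth muscle genes, had 10.24, 10.29, 10.81 and 11.05 in Dom/Dom replicates 1 to 4, against 10.04, 9.57, 10.06 and 10.19 in wild-type replicates 1 to 4 (limma adjusted p = 0.353; 0.0507 with the block). The genotypes did not overlap for Myocd or Des, as for 1.18% of all genes in this direction. Des, which encodes desmin, differed by 0.36 (adjusted p = 0.371; 0.235 with the block). Between replicates 3 and 4 and replicates 1 and 2 these markers went both ways: Myocd differed by 0.67 in Dom/Dom and 0.32 in wild type, and Smtn by -0.22 in Dom/Dom and -0.32 in wild type.

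Of 16 endothelial markers 4 were measured, with 0 past the threshold, where 0.481% of all genes were. Their mean level ran from 8.07 to 8.22 in Dom/Dom and from 8.11 to 8.32 in wild type. Ramp2, a partner of the receptor for adrenomedullin, had the largest difference (-0.18, limma adjusted p = 1.00). The tight junction gene Cldn5 averaged 8.50 ± 0.14 on the Dom/Dom arrays and 8.58 ± 0.16 on the wild-type arrays (SD, n = 4 each). Of 7 melanocyte markers 2 were measured, Dct and Pmel. Both fell past the threshold, with -2.53 and -1.84 (limma adjusted p = 0.00152 each), where 0.408% of all genes did. Their mean level ran from 7.99 to 8.69 in Dom/Dom and from 10.06 to 10.81 in wild type, and the part of these cells, or of the glial cells above, in the level of Rgs16, which was also lower in Dom/Dom, was not tested.

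The rest of the pathway was followed in 8 lists with 171 genes, of which 66 were measured. Without the block 0 of the 66 passed in limma, where 0.481% of all genes did, and with the block 0 passed, where 1.50% did; at an unadjusted p under 0.05 there were 4 without the block, where 6.11% of all genes lay, and 10 with it, where 13.9% lay. Their median difference was -0.008, and 1 of the 66 differed by more than 0.5 log2 units. That gene was Ednrb, which encodes the endothelin receptor of neural crest cells that couples to Gi and Gq. Its log2 level was 12.05, 11.83, 11.79 and 11.91 in Dom/Dom replicates 1 to 4, against 12.48, 12.39, 13.16 and 13.25 in wild-type replicates 1 to 4. The genotypes did not overlap, and the difference of -0.92 missed the threshold (limma adjusted p = 0.0718, and 0.0644 with the block). Of the 66, Rgs7bp, Gng7 and Adcy1, lower in Dom/Dom, and Lpar6, higher, did not overlap either. Over all genes 2.60% did not overlap with Dom/Dom lower and 1.18% with Dom/Dom higher.

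Of 11 further measured genes with an RGS domain, 6 differences were above 0 and 5 below, with a median of 0.001 and a range from -0.17 for Rgs20 to 0.21 for Rgs13. Among them were Rgs14, Rgs17, Rgs22 and Axin2, the scaffold of the complex that degrades beta-catenin, at 0.001, 0.12, -0.0082 and -0.025. Of the partners of the R7 members 2 were measured. Rgs7bp, the protein that anchors R7 members to the membrane, had 7.75, 7.79, 7.58 and 7.60 log2 units in Dom/Dom replicates 1 to 4, against 7.87, 7.94, 7.99 and 8.04 in wild-type replicates 1 to 4. The groups did not overlap, and the difference of -0.28 did not pass (limma adjusted p = 0.279; 0.139 with the block). Gpr179, a partner of R7 members in the retina, differed by -0.021.

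The 4 measured G alpha genes had a median difference of -0.083. Gnaz, whose product belongs to the Gi class, had the largest (-0.21, limma adjusted p = 1.00), followed by Gna15 of the Gq class (-0.10). Gna11, a target of Rgs2 in other cells, and Gna13 differed by -0.071 and 0.039. For the G beta and gamma subunits 5 genes were measured, all of them gamma genes, and the beta genes were not analysed here. Their median was -0.097, with Gng7 at -0.31 (adjusted p = 0.518; 0.183 with the block) and Gng2 at -0.19. The difference of Gng2 was 0.56 in replicate 1 and -0.15, -0.55 and -0.62 in replicates 2 to 4, the pattern of Rgs7 and Rgs8.

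Of 26 measured receptors, the largest difference after that of Ednrb was that of the serotonin receptor gene Htr2a (0.25, limma adjusted p = 0.966). The chemokine receptor genes Cxcr4 and Ackr3, which guide migrating cells, differed by 0.014 and -0.0068. Of 10 measured effectors, Adcy1 had -0.21 (adjusted p = 0.747; 0.139 with the block) and Adcy2 had 0.10, both adenylyl cyclases. Of 6 measured genes listed as regulators without an RGS domain, Rap1gap2 had -0.19 and Pdcl3 had 0.17. The N-degron pathway, which destroys the RGS4, RGS5 and RGS16 proteins through their amino-terminal cysteine, was represented by Ado, the enzyme that oxidises this cysteine, and Ntan1, at -0.055 and -0.085 (adjusted p = 1.00 each). Protein levels were not measured.

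**Figure D5:**
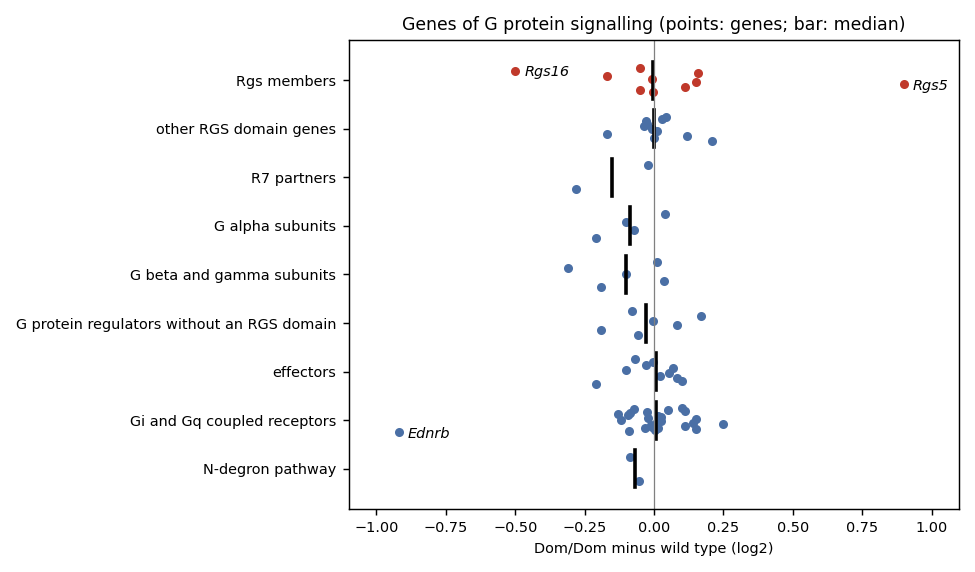
Difference in log2 expression between Dom/Dom and wild type (horizontal axis) for the members (red) and the measured genes of 8 lists of G protein signalling (blue), with each list's median as a bar. Rgs5 at 0.90, Rgs16 at -0.50 and Ednrb at -0.92 stand outside the other genes, which lie between -0.31 and 0.25.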

How the data were processed

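The authors deposited 1 log2 expression value for each probe set and array. The submitters' processing notes name RMA and Partek, with versions not given in the sources used here. In RMA, background is subtracted, arrays are brought to a common distribution and the probes of a set are combined, which compresses the differences of dim probe sets. RNA labelling started from 250 ng of total RNA, per the labels' protocols. The table used here held 16381 probe sets, part of the array. In the platform annotation 7416 had 1 symbol, 509 had more than 1 and 8456 had no symbol. Those with 1 symbol were kept, a gene being represented by its brightest probe set, which left 6855 genes, 6829 of them matched by identifier to RefSeq GRCm38.p6, which gave symbols and positions. Of the genes tested, 97.8% lay on chromosome 1 or on chromosomes 10 to 16. Other genes were not analysed here.

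Each gene was fitted with lmFit and eBayes of limma 3.58.1 under R 4.3.3, two-sided, with genotype as the only term and Benjamini-Hochberg adjustment over all 6855 genes at 0.05. Same-numbered arrays of the genotypes correlated in their deviations from the genotype means at 0.47, 0.58, 0.61 and 0.67 for replicates 1 to 4. Pairs of the same number were therefore used for the differences within replicates and for the blocked alternative. The main calls and the adjusted p-values given without the block do not use this pairing. The labels do not say what a number marks, so the pairing rests on these correlations. Blocked values stand beside a result where they change a call, and for the genes discussed most closely. The alternatives were a replicate block, other scalings, the mean over probe sets, a filter on dim genes, array weights, a trended robust prior, leaving out each array, and each set of replicates alone. Precision is limited by the number of arrays.

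The members, the lists and the tests were chosen with earlier results of these data known. Named genes were the members, Sox10, the genes most and least correlated with Rgs5 and the nearest tested neighbours. Each list gave up to 4 passing genes, or otherwise its 2 largest differences. Some genes were named after their values were seen: Rgs14, Rgs17, Rgs22, Gna11, Gna13, Cxcr4, Ackr3, Lpar6 and Fabp7. So were the other smooth muscle, mural and neuron genes and those with large differences in every replicate. RefSeq windows upstream of genes were searched for short motifs on both strands.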

Additional observations from a re-analysis of the deposited data

Results flagged for a closer look

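In each genotype the 4 arrays were searched for a value far from the other 3, over the 68 genes that the rule for named genes gives. This was the case in 6 of the 136 sets of 4, and about 6.8 are due to chance alone. None of the 20 sets of the 10 Rgs members did. In Dom/Dom replicate 1, Gng2 was high (11.66, against 11.15 to 11.21 on the other 3), Erbb3 was low (10.03, against 10.80 to 10.96) and Uchl5, the neighbour of Rgs2, was low (10.41, with the other 3 from 11.07 to 11.18). In wild-type replicate 1, Adcy1 was high (9.45, against 9.17 to 9.20). Gm11696, the neighbour of Rgs9, had a low value (7.42) in Dom/Dom replicate 4, where the other 3 lay from 7.60 to 7.62, and a high value (7.85) in wild-type replicate 1, where the other 3 lay from 7.42 to 7.47.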

How the results depend on the processing

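The difference of Rgs5 lay between 0.69 and 1.10 and that of Rgs16 between -0.58 and -0.46 over 17 alternatives, with the same sign in all 17. With arrays centred on their median, where the median of all genes was -0.062, they were 0.83 and -0.56, and the other scaling, to one distribution, gave 0.87 and -0.51. The small differences of the other members were less stable: Rgs2, Rgs4, Rgs7, Rgs8, Rgs9, Rgs1 and Rgs18 changed sign under at least 1 alternative. In replicates 1 and 2 alone Rgs7 differed by 0.31, Rgs8 by 0.03 and Rgs9 by -0.0093, against -0.32, -0.38 and 0.33 in replicates 3 and 4 alone. The median of the members lay between -0.070 and 0.076.

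Of the members, 2 passed with the replicate block and in replicates 3 and 4 alone (Rgs5 and Rgs16), and 1, Rgs16, passed with arrays brought to one distribution, with median centring, without the dimmest genes by quartile, with array weights and with a trended robust prior. Leaving out each array gave 0 to 1 members, the 1 being Rgs16 without Dom/Dom replicate 2 (0.423% of all genes). The share of genes called was 1.50% with the block, 5.13% in replicates 3 and 4 alone, 0.613% with arrays brought to one distribution, 0.686% with median centring, 0.759% without the dimmest genes, 2.77% with array weights and 0.598% with the trended robust prior. The members were chosen on this contrast, and nothing is read from their counts. Over all genes the count of 33 became 103 with the block (30 shared), 190 with array weights, 4 in replicates 1 and 2 alone and 352 in replicates 3 and 4 alone, and lay between 10 and 51 without 1 array: 11 and 12 without Dom/Dom replicates 3 and 4, 10 without wild-type replicate 3 or 4, and 51 without wild-type replicate 2. In the 8 lists of G protein signalling the count of 0 became 1 with median centring and without wild-type replicate 2 (range 0 to 1 without an array), Ednrb each time; it was 3 with array weights (Ednrb, Gng7 and Rgs7bp) and 5 in replicates 3 and 4 alone (those 3, Gng2 and Sstr2). The limma adjusted p of Ednrb ran from 0.000294 to 0.992 over the alternatives. Sox10 lost its call without Dom/Dom replicate 3 or 4 or wild-type replicate 3 or 4 and in replicates 1 and 2 alone (difference -1.11, adjusted p = 0.746); without 1 array its difference lay between -1.34 and -1.02. The cause of these shifts was not tested. Alternatives on the same arrays are not independent evidence, and without detection calls it is unknown which dim probe sets were above background.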
